A study of Mus musculus with 10 samples.

Results

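The genes described here are the ligands and receptors of 2 myeloid growth factors, M-CSF and GM-CSF: Csf1, Il34, Csf1r, Csf2, Csf2ra, Csf2rb and Csf2rb2. They were chosen by name, with earlier results of these data known. All 7 were measured, out of 19938 genes on the array that had a probe annotated to a single symbol. Each of the 7 has 1 such probe, so no choice between probes was needed. The samples were subcutaneous tumors of the mouse colon carcinoma line MC38 in C57BL/6 mice. Tumors of the 5 CpG1826 mice (numbers 50, 58, 183, 189 and 595), about 40 mm2 in size, were injected with 50 µg CpG1826 dissolved in 50 µL PBS and removed 6 h afterwards. CpG1826 is a short synthetic DNA whose unmethylated CpG motifs stimulate the endosomal sensor TLR9. The 5 control mice (26, 29, 482, 592 and 661) had tumors injected with PBS. The labels do not describe the PBS schedule separately, so the same time was assumed. The sources used here give neither age nor sex of the mice. Each array was read as 1 mouse from the number in its label, so precision is set by having 5 arrays in each group.

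M-CSF, encoded by Csf1, and IL-34, encoded by Il34, are separate ligands of one receptor tyrosine kinase, CSF1R. Most monocytes and macrophages carry it, and many macrophages need it for survival. GM-CSF, encoded by Csf2, binds the alpha chain CSF2RA, and the signal passes through the beta common chain CSF2RB to the kinase JAK2 and the factor STAT5. In mice the beta chain exists as 2 genes: Csf2rb serves the receptors of GM-CSF, IL-3 and IL-5, while the product of Csf2rb2 serves that of IL-3. Tumors contain macrophages that depend on M-CSF, and GM-CSF is known for its action on granulocytes, monocytes and dendritic cells.

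The receptors of the family moved in opposite directions and no ligand passed the test. Csf1r was 1.37-fold lower in CpG1826 tumors, Csf2rb was 1.55-fold higher and Csf2rb2 1.36-fold higher. Csf1, Il34, Csf2 and Csf2ra did not pass. So 2 of 7 members rose and 1 fell, where the same limma test passed 4.66% of all 19938 genes at an adjusted p under 0.05 (3.56% higher and 1.1% lower). The count that rose was 1, with Csf2rb2 lost, after quantile normalization and in 7 of the 10 fits that left out 1 mouse. The median log2 fold change was 0.03 over the 7 members and -0.02 over all genes. Groups did not overlap for the same 3 members, and for 6.78% of all genes (4.35% higher and 2.42% lower). Members and the gene lists below were chosen with earlier results known, so such counts beside all genes are a description and not a test.

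Promoter sequences of 4 of the 7 genes, without Csf1r, Csf2rb and Il34, are shown to set a gene that rose, Csf2rb2, beside 3 that did not pass. They are RefSeq sequences of GRCm38.p6, from 250 bases before to 50 after the annotated start, each on the minus strand and written 5′ to 3′. Capitals mark matches on either strand to any of 4 motifs: NF-kB (GGGA, any 4 bases, then CC), AP-1 (TGANTCA), the STAT site GAS (TTCNNNGAA) and PU.1 (GAGGAAG). The windows are chr15:78305672-78305971 for Csf2rb2, chr3:107760420-107760719 for Csf1, chr11:54249850-54250149 for Csf2 and chr19:61228369-61228668 for Csf2ra.
Csf2rb2: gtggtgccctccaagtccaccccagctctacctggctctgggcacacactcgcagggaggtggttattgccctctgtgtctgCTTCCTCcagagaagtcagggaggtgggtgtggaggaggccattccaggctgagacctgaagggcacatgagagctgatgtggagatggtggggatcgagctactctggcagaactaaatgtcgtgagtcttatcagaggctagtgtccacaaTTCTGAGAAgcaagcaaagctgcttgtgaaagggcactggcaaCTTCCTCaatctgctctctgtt
Csf1: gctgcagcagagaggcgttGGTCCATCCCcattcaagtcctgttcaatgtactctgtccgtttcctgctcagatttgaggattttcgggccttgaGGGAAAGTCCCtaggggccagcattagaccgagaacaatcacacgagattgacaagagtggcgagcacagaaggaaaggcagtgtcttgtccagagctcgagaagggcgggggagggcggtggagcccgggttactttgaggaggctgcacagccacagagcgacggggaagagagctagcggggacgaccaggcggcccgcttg
Csf2: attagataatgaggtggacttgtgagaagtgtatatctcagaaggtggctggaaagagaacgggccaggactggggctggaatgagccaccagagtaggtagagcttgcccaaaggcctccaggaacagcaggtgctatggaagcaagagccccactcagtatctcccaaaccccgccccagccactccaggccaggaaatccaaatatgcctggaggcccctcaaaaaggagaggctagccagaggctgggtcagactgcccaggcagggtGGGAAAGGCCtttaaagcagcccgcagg
Csf2ra: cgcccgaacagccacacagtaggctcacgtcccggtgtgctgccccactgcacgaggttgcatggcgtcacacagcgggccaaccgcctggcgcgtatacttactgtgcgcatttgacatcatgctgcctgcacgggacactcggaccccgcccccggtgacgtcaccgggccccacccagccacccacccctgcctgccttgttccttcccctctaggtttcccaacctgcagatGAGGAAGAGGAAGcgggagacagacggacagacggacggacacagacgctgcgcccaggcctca
The Csf2rb2 window held 1 GAS match, TTCTGAGAA, and 2 PU.1 matches, both CTTCCTC on the opposite strand. The Csf1 window held 3 NF-kB matches, 2 of which overlap, shifted by 1 base: GGGAAAGTCC matches on the printed strand, and GGAAAGTCCC, as printed, on the opposite one. The Csf2 window held 1 NF-kB match, GGGAAAGGCC, which lies after the annotated start, and the Csf2ra window held 2 PU.1 matches that share a base. None of the 4 windows held the AP-1 letters. Of 32851 RefSeq promoter windows of the same length, 20.7% held the NF-kB letters, 13.6% PU.1, 8.30% GAS and 7.81% AP-1. A match is a run of letters and was not tested as a binding site.

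Csf1r, the receptor of M-CSF and IL-34, had log2 array values of 9.90, 9.95, 10.18, 9.83 and 10.24 in CpG1826 tumors 50, 58, 183, 189 and 595, against 10.59, 10.58, 10.46, 10.50 and 10.26 in PBS tumors 26, 29, 482, 592 and 661. Every CpG1826 tumor lay below every PBS tumor, but the gap was narrow: the highest CpG1826 tumor, 595, and the lowest PBS tumor, 661, were 0.02 apart. The means were 10.02 ± 0.18 in CpG1826 and 10.48 ± 0.14 in PBS tumors (SD, n = 5 each). The log2 fold change was -0.46 ± 0.09 (SE), a 1.37-fold lower level (limma, Benjamini-Hochberg adjusted p over all genes = 0.0119; the 95% confidence interval of the fold is 1.19 to 1.58). The call was kept without any one mouse (limma adjusted p = 0.00752 to 0.0389). In whole tumors, fewer cells of a type and less RNA per cell cannot be told apart.

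Neither ligand of CSF1R changed by an amount the test could detect. Csf1 lay between 9.78 and 10.01 in the CpG1826 tumors (median 9.97) and between 9.81 and 10.04 in the PBS tumors (median 9.93). The groups overlapped over almost their whole range, and the log2 fold change was 0.03 ± 0.07 (SE; 95% confidence interval -0.12 to 0.18, limma adjusted p = 0.876). Il34 ran from 9.42 in mouse 50 to 9.81 in mouse 58 among CpG1826 tumors (median 9.68), and from 9.65 to 9.79 in PBS tumors (median 9.68). Its log2 fold change was -0.06 ± 0.08 (SE; -0.23 to 0.10, limma adjusted p = 0.761). The intervals of both ligands exclude a fall as large as the estimate for Csf1r.

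Csf2rb, the signalling chain shared by the receptors of GM-CSF, IL-3 and IL-5, had log2 array values of 9.26, 9.26, 9.52, 9.17 and 9.25 in CpG1826 tumors 50, 58, 183, 189 and 595, against 8.70, 8.94, 8.78, 8.68 and 8.22 in PBS tumors 26, 29, 482, 592 and 661. All CpG1826 tumors lay above all PBS tumors, by at least 0.24, with mouse 183 at the top and mouse 661 at the bottom. The means were 9.29 ± 0.13 in CpG1826 and 8.66 ± 0.27 in PBS tumors (SD, n = 5 each). Csf2rb was thus 1.55-fold higher (1.30 to 1.84, 95% confidence interval), or 0.63 ± 0.12 on the log2 scale (SE; limma adjusted p = 0.00597). Without any one mouse the limma adjusted p stayed between 0.00423 and 0.0184.

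Csf2rb2, the beta chain of the IL-3 receptor, had log2 array values of 8.71, 8.64, 9.16, 8.66 and 8.89 in the same order of CpG1826 tumors, against 8.35, 8.59, 8.49, 8.36 and 8.05 in the PBS tumors. The groups were 0.06 apart, and the tumors at both ends were the same as for Csf2rb, 183 and 661. The level was 1.36-fold higher (1.15 to 1.62, 95% confidence interval), or 0.45 ± 0.12 on the log2 scale (SE; limma adjusted p = 0.0453). This call was not stable. It was lost without CpG1826 mouse 50 (0.47, limma adjusted p = 0.0679), 183 (0.36, limma adjusted p = 0.0968) or 595 (0.43, limma adjusted p = 0.0974). It was also lost without PBS mouse 26 (0.44, limma adjusted p = 0.0987), 482 (0.48, limma adjusted p = 0.0635), 592 (0.45, limma adjusted p = 0.0876) or 661 (0.37, limma adjusted p = 0.101), and the estimate stayed positive in each fit. Csf2rb and Csf2rb2 are neighbours on mouse chromosome 15 with 0 annotated genes between them and have similar sequences, so how far each probe reads its own gene is uncertain. The probe sequences were not used here.

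Csf2ra, the alpha chain that binds GM-CSF, lay between 8.84 and 9.04 in CpG1826 tumors (median 8.92) and between 8.81 and 9.02 in PBS tumors (median 8.97). The groups overlapped throughout, with a log2 fold change of 0.00 ± 0.07 (SE; 95% confidence interval -0.15 to 0.15, limma adjusted p = 0.997). Csf2 itself ran from 5.14 in mouse 189 to 5.74 in mouse 50 among CpG1826 tumors (median 5.36), and from 5.20 to 5.54 in PBS tumors (median 5.28). Its log2 fold change was 0.11 ± 0.11 (SE; -0.13 to 0.35, limma adjusted p = 0.700). The Csf2 probe had low values on these arrays, at percentile 27.3 of the mean levels of all genes, where summarization can compress a change. Detection calls were not used here, so the ligand is not called absent.

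**Figure D1:**
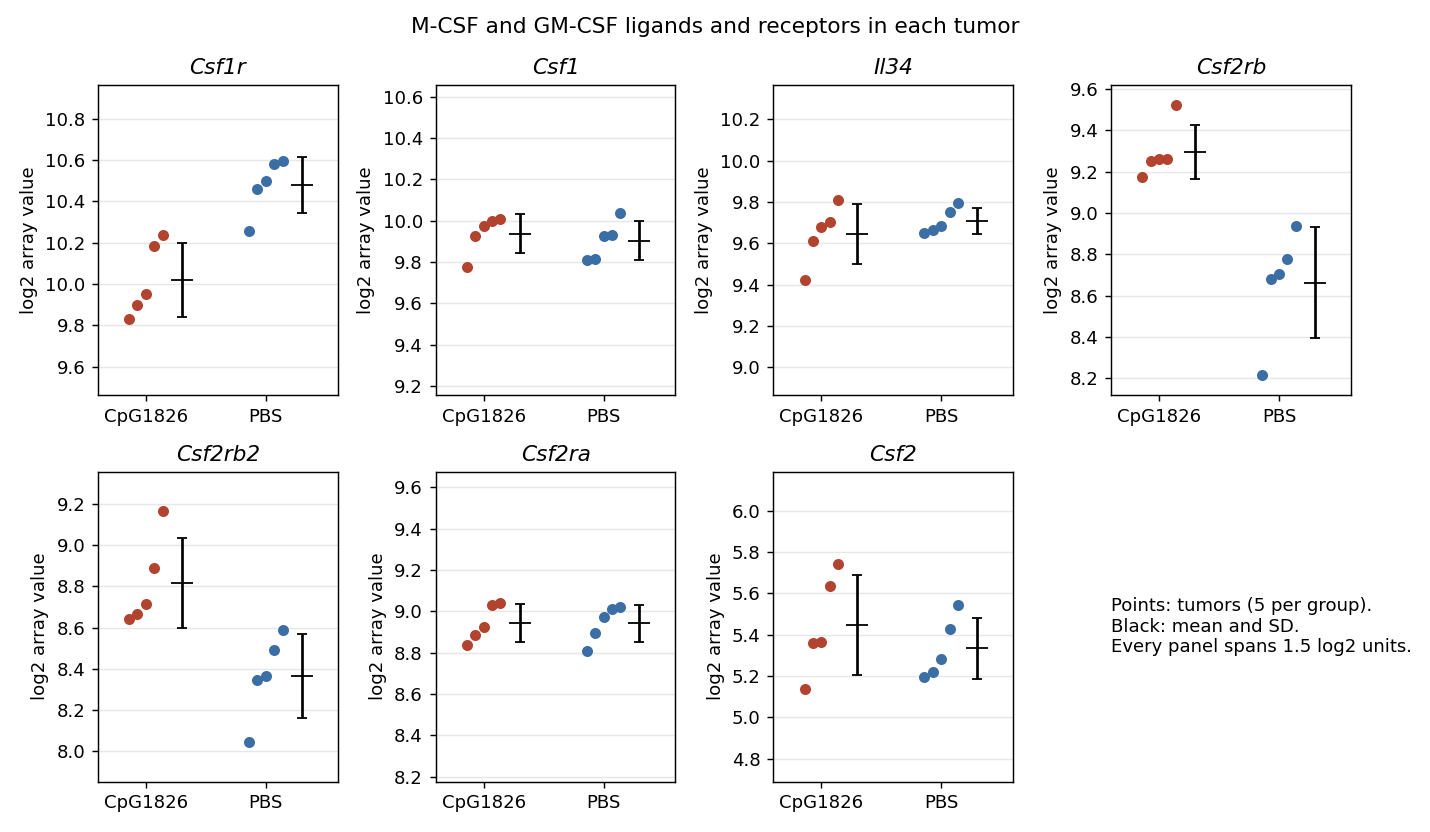
Log2 array values (vertical axis) of the 7 genes in each tumor, CpG1826 at the left and PBS at the right of each panel, with the mean and SD in black (n = 5 each). Csf1r is lower and Csf2rb and Csf2rb2 are higher in every CpG1826 tumor than in any PBS tumor, while the groups overlap for Csf1, Il34, Csf2ra and Csf2.

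The fall of Csf1r was then set against each other member within the same tumor, as the log2 value of Csf1r minus that of the member. Absolute differences between probes have no meaning, so only their change between groups is read. Against Csf1, this difference was 0.08 ± 0.23 in CpG1826 and 0.57 ± 0.23 in PBS tumors (SD, n = 5 each), a change of -0.49 (exact permutation test, two-sided p = 0.0238, adjusted p = 0.0238 over the 6 differences). It was the only one of the 6 whose groups overlapped: PBS tumor 661, at 0.22, lay below CpG1826 tumors 183 and 595, at 0.41 and 0.23. Against Il34 the change was -0.39 ± 0.11 and against Csf2ra -0.46 ± 0.09 (SE). Against Csf2 the change was -0.57 ± 0.13 (SE). The contrast was widest with the beta chains. Csf1r minus Csf2rb was 0.73 ± 0.15 in CpG1826 and 1.81 ± 0.16 in PBS tumors (SD, n = 5 each), a change of -1.09 ± 0.10 (SE), and for Csf2rb2 it was 1.21 ± 0.13 in CpG1826 and 2.11 ± 0.13 in PBS tumors, a change of -0.90 ± 0.08 (SE). For each of these 5 differences the exact permutation test gave a two-sided p of 0.00794, the smallest that 5 against 5 can give, and adjusted p = 0.00952. For Csf2rb and Csf2rb2 this outcome was fixed beforehand. Every CpG1826 tumor lay below every PBS tumor for Csf1r and above every PBS tumor for both beta chains. Those tests therefore add nothing to the results of the single genes. By these differences the change of Csf1r differed from that of Csf1, Il34, Csf2 and Csf2ra. All 6 calls were kept in the fits without any one mouse (exact permutation adjusted p = 0.0159 to 0.0476), where those for the beta chains were again fixed.

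Csf1r is itself a macrophage marker, so it was also set beside 14 measured macrophage markers that do not include it. Of these, 2 rose, 1 fell and 11 did not pass (limma, all genes: 3.56% higher and 1.1% lower), with a median log2 fold change of -0.11. Their summed level on the linear scale ran from 16206 to 21439 in CpG1826 and from 15696 to 20374 in PBS tumors. The fractalkine receptor gene Cx3cr1 fell by 1.21 on the log2 scale (limma adjusted p = 6.53e-05), and the scavenger receptor gene Msr1 rose by 0.66 (limma adjusted p = 0.000615). Fcgr1, a high-affinity Fc receptor gene, rose by 0.40 (limma adjusted p = 0.0388), a call lost without CpG1826 mouse 58, 183 or 595 or PBS mouse 26, 29, 482 or 661 (0.32 to 0.43 on the log2 scale when any one mouse was left out, limma adjusted p = 0.0434 to 0.0982). Adgre1, an adhesion receptor gene of macrophages, and Cd68, a lysosomal one, differed by 0.03 and -0.02 and did not pass. These 2 are not typical of the 11 markers that did not pass, whose log2 fold changes ran from -0.35 to 0.06. At an unadjusted p under 0.05, 2 of the 14 markers were higher and 2 lower (limma, all genes: 8.13% higher and 7.43% lower). The mean log2 value of the 14 markers was 9.48 ± 0.16 in CpG1826 and 9.58 ± 0.11 in PBS tumors (SD, n = 5 each).

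Within tumors, Csf1r minus this marker mean was 0.63, 0.47, 0.52, 0.44 and 0.62 in CpG1826 tumors 50, 58, 183, 189 and 595, against 0.92, 0.92, 0.87, 0.89 and 0.87 in PBS tumors 26, 29, 482, 592 and 661. The PBS values were tight, with an SD of 0.03, and the CpG1826 values lay below all of them. The change was -0.36 ± 0.04 (SE; exact permutation test, two-sided p = 0.00794, adjusted p = 0.0106 over the 4 receptors). Csf1r was thus lower relative to the marker mean as well as on its own. For Csf2rb the difference from the marker mean changed by 0.73 ± 0.10 and for Csf2rb2 by 0.55 ± 0.09 (SE), each with the same exact permutation p and adjusted p. For Csf2ra it changed by 0.10 ± 0.08 (SE), with overlapping groups (exact permutation test, two-sided p = 0.238, adjusted p = 0.238).

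**Figure D2:**
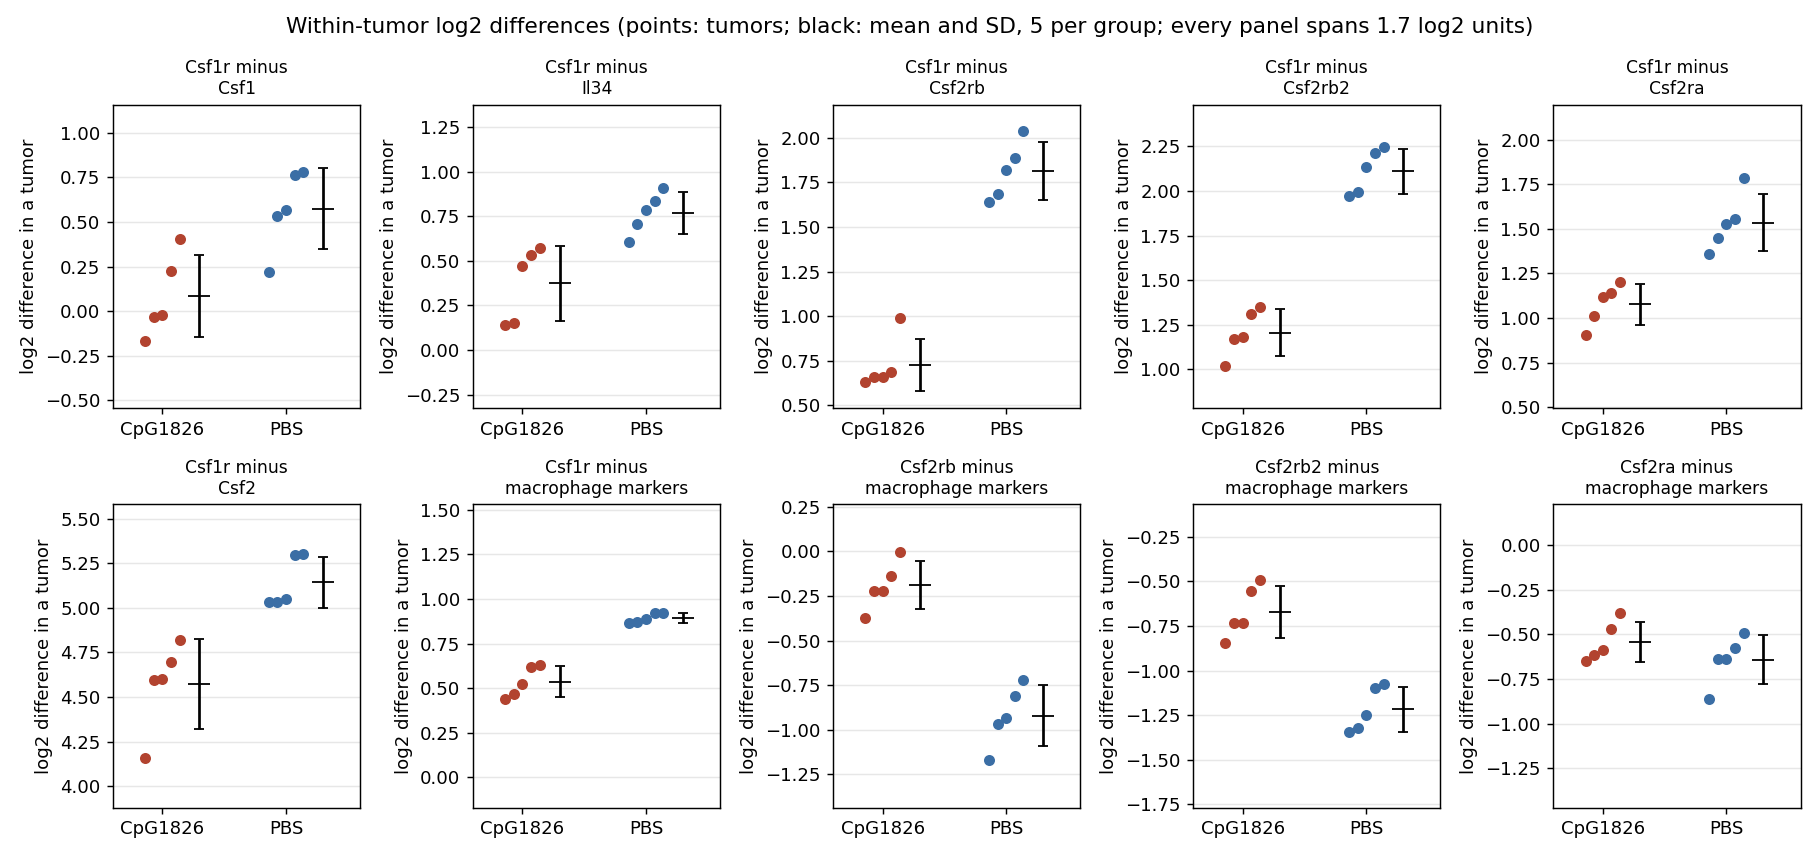
Within-tumor log2 differences (vertical axis) of Csf1r from each other member and of each receptor from the mean of 14 macrophage markers, CpG1826 at the left and PBS at the right of each panel, with the mean and SD in black (n = 5 each). The groups overlap for Csf1r minus Csf1 and for Csf2ra minus the markers, and are separate in the other 8 panels.

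Genes that act downstream of CSF1R or in the macrophage programme were also measured. Of 19, 4 rose, 0 fell and 15 did not pass (limma, all genes: 3.56% higher and 1.1% lower), with a median log2 fold change of 0.04. At an unadjusted p under 0.05, 4 were higher and 4 lower, where limma passed 8.13% of all genes as higher and 7.43% as lower at that threshold (15.6% in all). The genes that rose are transcription factors and a signal relay. Cebpb, a factor of inflammatory macrophages, was 9.29 ± 0.10 in CpG1826 and 8.37 ± 0.37 in PBS tumors (SD, n = 5 each; log2 fold change 0.93, limma adjusted p = 0.00174). Spi1, which encodes PU.1, an activator of Csf1r transcription, was 9.18 ± 0.26 in CpG1826 and 8.47 ± 0.27 in PBS tumors (SD, n = 5 each; 0.72 ± 0.14, SE; limma adjusted p = 0.00921). Its groups did not overlap, in the direction opposite to Csf1r. Ets2, a target of the RAS pathway, rose by 0.85 (limma adjusted p = 0.000904). Sos1, which activates RAS, rose by 0.45 (limma adjusted p = 0.0274), a call lost without CpG1826 mouse 58, 183 or 595 or PBS mouse 29, 482 or 661 (0.38 to 0.50 when any one mouse was left out, limma adjusted p = 0.0213 to 0.0737). Inpp5d, which encodes the phosphatase SHIP1, had a log2 fold change of -0.40 and Plcg2, a phospholipase, -0.29, and neither passed (limma adjusted p = 0.0717 and limma adjusted p = 0.0572). The count of genes that fell, 0, was 4 with genes below the median level left out, 3 with array weights, 3 with a trended and robust prior and 2 after quantile normalization. It was 1 without CpG1826 mouse 183 and 1 without PBS mouse 26.

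Of 16 measured genes of the GM-CSF signal and its targets, 5 rose, 0 fell and 11 did not pass (limma, all genes: 3.56% higher and 1.1% lower). The median log2 fold change was 0.11, and 0 were lower and 6 higher at an unadjusted p under 0.05 (all genes: 7.43% lower and 8.13% higher). Jak2, the kinase bound to the beta chain, was 10.60 ± 0.18 in CpG1826 and 9.96 ± 0.15 in PBS tumors (SD, n = 5 each; log2 fold change 0.64 ± 0.10, SE; limma adjusted p = 0.00151). Stat5a, one of the STAT5 genes, rose by 0.35 (limma adjusted p = 0.0201), while Stat5b differed by 0.06 and did not pass. Without CpG1826 mouse 183 the number of genes that rose was 4, with the Stat5a call lost. Among targets that other cytokines also induce, Socs3, a feedback inhibitor, rose by 1.34 (limma adjusted p = 4.95e-07) and Pim1, a survival kinase, by 0.90 (limma adjusted p = 0.000129). Il1rn, the interleukin-1 receptor antagonist, rose by 2.64 (limma adjusted p = 6.77e-07). Cish, a direct STAT5 target, differed by 0.19, Irf4 by 0.03 and Ccl17 by -0.05 on the log2 scale, and none of them passed. Irf4 and Ccl17 had low array values, between 5.18 and 5.75 as group means.

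Of the other members of the beta common family, none passed. Il3ra, the alpha chain of the IL-3 receptor, differed by -0.01 and Il5ra by -0.05, and the ligands Il3 and Il5 by 0.00 and -0.10 on the log2 scale. Il3, Il5 and Il5ra had low array values, between 3.70 and 4.29 as group means, against array medians of 6.47 to 6.53. At such values a change may not be seen. Il3 lies next to Csf2 on chromosome 11. The receptor of the third colony-stimulating factor also rose. Csf3r, the G-CSF receptor, was 8.80 ± 0.33 in CpG1826 and 7.70 ± 0.10 in PBS tumors (SD, n = 5 each; log2 fold change 1.10 ± 0.13, SE; limma adjusted p = 2.00e-04), and its ligand Csf3 differed by 0.05 and did not pass (limma adjusted p = 0.835). Csf3 also lay below the array medians, with means of 5.97 in CpG1826 and 5.92 in PBS tumors, so a change may not be seen. So 1 of 6 genes of this list rose and 0 fell (limma, all genes: 3.56% higher and 1.1% lower). At an unadjusted p under 0.05 the counts were the same, where limma passed 8.13% of all genes as higher and 7.43% as lower (15.6% in all). The unadjusted count of this short list is close to that share in all.

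IL-34 has further receptors, and CSF1R can be cut from the cell surface by the protease ADAM17. Of these 5 genes 2 rose and 0 fell (limma, all genes: 3.56% higher and 1.1% lower), with a median log2 fold change of 0.19. At an unadjusted p under 0.05, 3 were higher and 0 lower (all genes: 8.13% higher and 7.43% lower). Rhbdf2, which encodes iRhom2, the partner that brings ADAM17 to the surface, was 9.32 ± 0.24 in CpG1826 and 8.61 ± 0.11 in PBS tumors (SD, n = 5 each; log2 fold change 0.71 ± 0.11, SE; limma adjusted p = 0.00117). Adam17 itself differed by 0.19 and did not pass (limma adjusted p = 0.180). Sdc1, a proteoglycan that binds IL-34, rose by 0.36 (limma adjusted p = 0.0355), a call lost without CpG1826 mouse 58, 183 or 595 or PBS mouse 26, 29 or 592 (0.31 to 0.42 when any one mouse was left out, limma adjusted p = 0.0197 to 0.0968). Ptprz1, another IL-34 receptor, differed by -0.10 at low array values, with means of 3.22 in CpG1826 and 3.32 in PBS tumors. Protein at the surface was not measured.

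**Figure D3:**
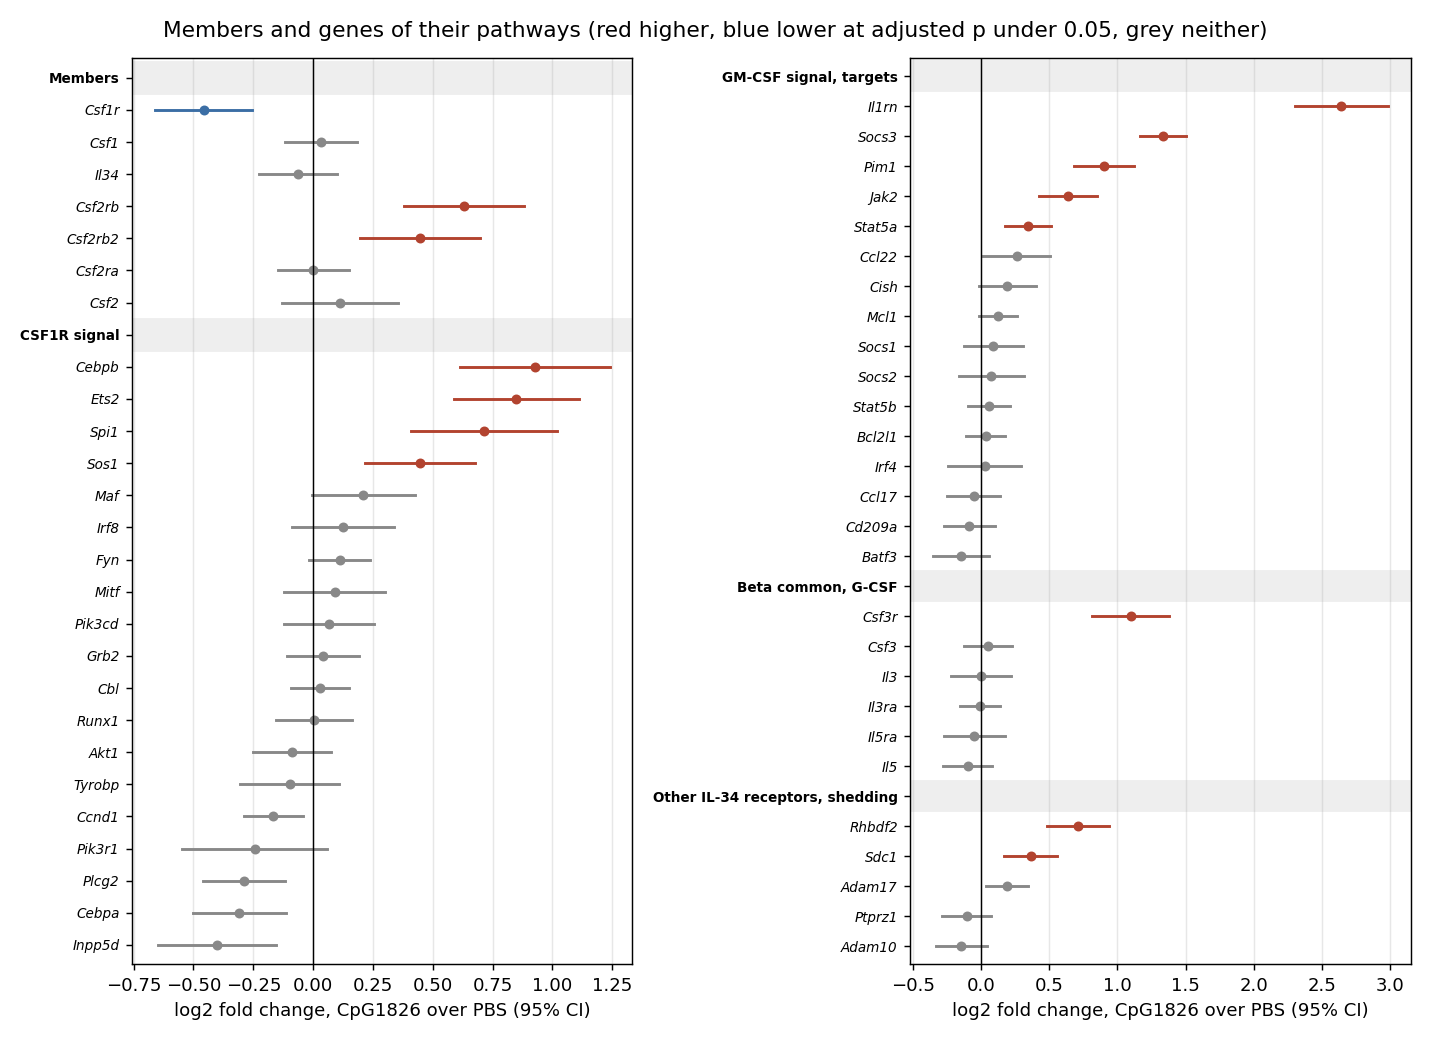
Log2 fold change of CpG1826 over PBS (horizontal axis) with its 95% confidence interval for the 7 members and for 46 genes of their pathways, one gene per row. Red marks genes that rose and blue genes that fell at a limma adjusted p under 0.05, and Csf1r is the only blue row.

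Markers of other cells that carry these receptors moved as well. Of 11 neutrophil markers, 6 rose and 0 fell (limma, all genes: 3.56% higher and 1.1% lower), with a median log2 fold change of 0.60. Their summed linear level was 1859 to 2117 in CpG1826 and 1167 to 1542 in PBS tumors. The number of neutrophil markers that rose was 5 without CpG1826 mouse 183 or PBS mouse 26, 29 or 482. With genes below the median level left out, only 2 of them were tested, and 1 rose. S100a8, a calgranulin, rose by 2.13, Cxcr2, a chemokine receptor, by 1.64 and S100a9 by 1.45 on the log2 scale, and Csf3r stands on this list too. The granule genes Camp, Ngp and Ltf and the surface marker Ly6g differed by -0.07 to 0.05 and did not pass. Their array values were low, between 3.96 and 5.55 as group means, against array medians of 6.47 to 6.53. Mmp8, another granule gene, rose by 0.88 (limma adjusted p = 0.00226), also at low values, with means of 5.09 in CpG1826 and 4.21 in PBS tumors. Neutrophils carry the beta common chain, and the part of these cells in the rise of Csf2rb was not tested. Of 5 monocyte markers 0 rose and 1 fell (limma, all genes: 3.56% higher and 1.1% lower). At an unadjusted p under 0.05, 3 were higher and 1 lower (all genes: 8.13% higher and 7.43% lower). The summed level of the monocyte markers was 2539 to 3104 in CpG1826 and 1951 to 2661 in PBS tumors. The number of monocyte markers that rose was 2 with array weights and 2 with low genes left out, and 1 after median centring, with a trended and robust prior or without PBS mouse 26. Ccr2, the monocyte chemokine receptor, fell by 0.61 (limma adjusted p = 0.0495), a call kept in 1 of 10 fits that leave out 1 mouse, the one without CpG1826 mouse 595 (-0.73, limma adjusted p = 0.0158, against limma adjusted p = 0.0516 to 0.127 in the others). The part of monocytes in the fall of Csf1r was not tested.

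Of 11 keratinocyte markers 8 rose and 0 fell (limma, all genes: 3.56% higher and 1.1% lower), with a median log2 fold change of 1.97. Their summed level was 1789.9 to 3257 in CpG1826 and 470.1 to 772 in PBS tumors. Krt1 and Krt5, keratins of the epidermis, rose by 3.06 and 2.95 on the log2 scale, and the part of these cells in the receptor results was not tested. Among 9 dendritic cell markers Ccr7 rose by 0.75 (limma adjusted p = 0.00724) and 8 did not pass (limma, all genes: 3.56% higher and 1.1% lower). By limma, 0 of 6 T cell, 0 of 5 NK cell, 0 of 4 B cell, 0 of 5 mast cell and basophil and 0 of 7 fibroblast markers passed, against 4.66% of all genes. At an unadjusted p under 0.05, 1 T cell, 1 mast cell and basophil and 1 fibroblast marker did so, where 15.6% of all genes passed in either direction. Tek fell among 6 endothelial markers and Cdh1 and Epcam rose among 5 epithelial ones (limma, all genes: 3.56% higher and 1.1% lower). With 1 mouse left out, the Tek call was kept only without PBS mouse 29 or 592 (limma adjusted p up to 0.117). The Epcam call was kept only without CpG1826 mouse 183 or PBS mouse 26 (limma adjusted p up to 0.126). Of the epithelial markers of the tumor line, Epcam, Krt18 and Krt19 had low array values, between 5.06 and 5.52 on the log2 scale as group means, against array medians of 6.47 to 6.53.

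**Figure D4:**
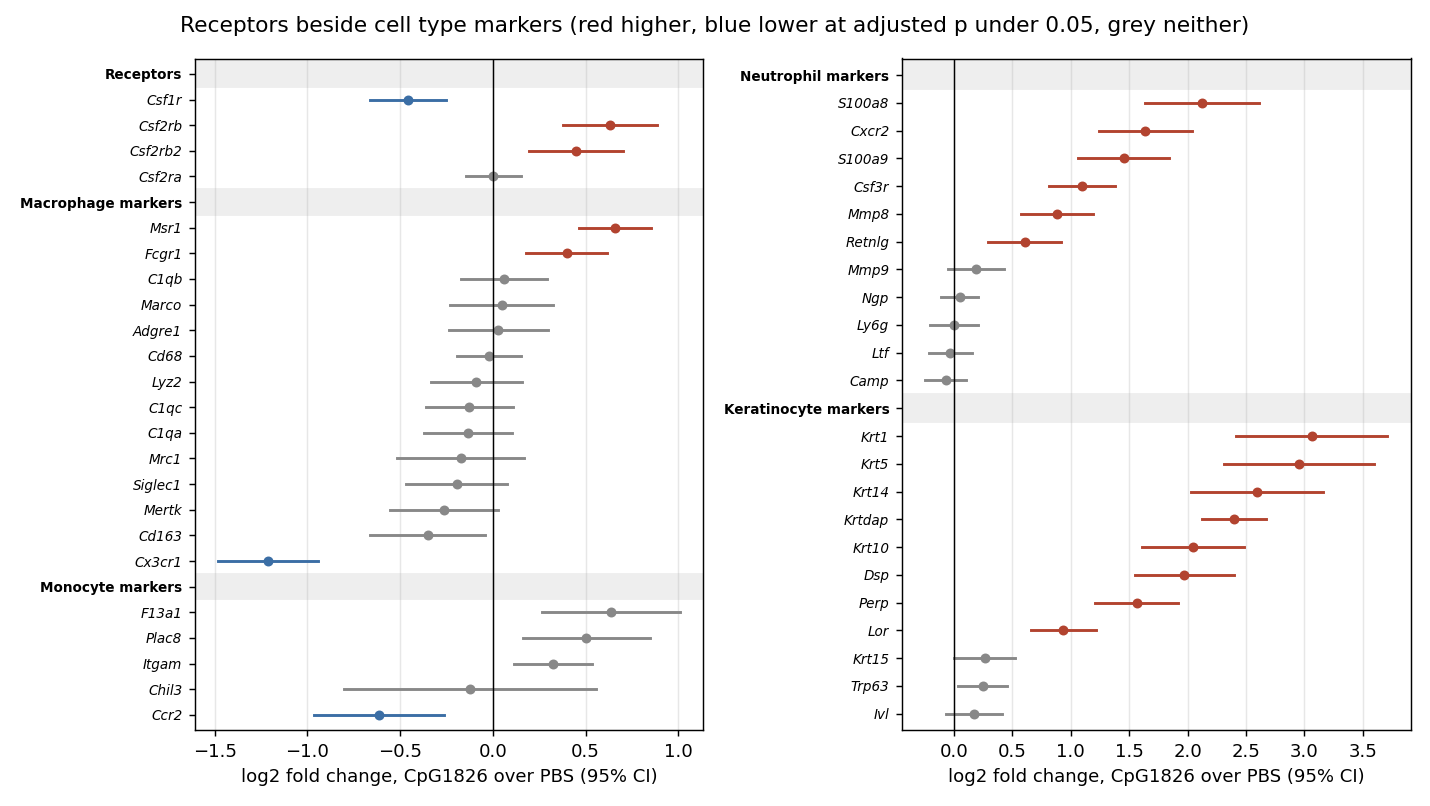
Log2 fold change of CpG1826 over PBS (horizontal axis) with its 95% confidence interval for the 4 receptor genes and for macrophage, monocyte, neutrophil and keratinocyte markers. Red marks genes that rose and blue genes that fell at a limma adjusted p under 0.05; Csf1r falls among macrophage markers of which 11 of 14 are grey, and 6 of 11 neutrophil markers are red.

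Genes with the nearest profile were sought among all others by the root mean square difference of log2 values over the 10 tumors, each gene centred on its own mean. The nearest to Csf1r were Slc43a2, an amino acid transporter, at 0.07, Il16, a cytokine that binds CD4, at 0.07, Fli1, an ETS transcription factor, at 0.08, Lat2, a signalling adaptor of leukocytes, at 0.08, and Lpar6, a lysophosphatidic acid receptor, at 0.08 log2 units. Their log2 fold changes ran from -0.44 to -0.33, beside -0.46 for Csf1r. Fli1 and Lat2 did not pass (limma adjusted p = 0.0514 and limma adjusted p = 0.0537). The Slc43a2 call was lost in 6 and the Il16 call in 2 of 10 fits that left out 1 mouse. The nearest to Csf2rb were Gda, a guanine deaminase, Bst1, a GPI-anchored ectoenzyme, and Bcl6, a transcriptional repressor, at 0.09 to 0.10, with log2 fold changes of 0.58 to 0.71. The nearest to Csf2rb2 were Itpkb, an inositol kinase, Btg2, an antiproliferative gene, and Kcna3, a potassium channel, at 0.08 to 0.09, with log2 fold changes of 0.34 to 0.54. Btg2 did not pass (limma adjusted p = 0.0966). The Kcna3 call was lost in 4 and the Itpkb call in 1 of 10 fits that left out 1 mouse. These distances include the difference between the groups and describe likeness over 10 tumors only.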

How the data were processed

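Total RNA of the tumors was labelled with biotin by a whole-transcript kit for Affymetrix arrays, per the labels' protocols. The deposited log2 values, 1 for every probe of an array, lie between 2.03 and 14.7, and the log base was read from them. R 2.7.1 and limma appear in the submitters' processing notes without a stated use. Background correction, summarization, normalization and genome build were not given in the sources used here. Array medians lie within 6.47 to 6.53, and scaling arrays to each other can mask a change common to most genes.

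Of 35512 probes, 21789 carry exactly 1 symbol in the platform annotation, 1621 several and 12102 none. For 999 of 19938 genes with several probes, the one with the highest mean over the 10 arrays was used. Each gene was tested with limma 3.58.1 (lmFit, eBayes) in R 4.3.3, two-sided, with Benjamini-Hochberg adjustment over all genes and a threshold of 0.05. The test was checked on simulated data. Within-tumor differences were compared by exact permutation of the 10 arrays (SciPy 1.17.1). P-values measure the spread between these mice. The groups share no mouse number to block on, and the labels name no batch.

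Members, tests and 16 gene lists were chosen with earlier results of these data known. Named genes were the 7 members, from each list the called genes that changed most, at most 4 (with none called, the 2 brightest), and the nearest profiles (5 for Csf1r, 3 for other called members). Stat5a, Stat5b, Cish, Irf4, Ccl17, Inpp5d, Plcg2, Adgre1, Cd68, Adam17, Ptprz1, Il3ra, Il5ra, Il3, Il5, Csf3, Camp, Ngp, Ltf, Ly6g, Mmp8, Krt18 and Krt19 were named after their values were seen. Some listed genes were not analysed here. The alternatives tried were leaving out each mouse, array weights, a prior that is trended and robust, testing every probe, averaging probes of a gene, leaving out low genes, centring on medians, and quantile normalization.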

Additional observations from a re-analysis of the deposited data

Results flagged for a closer look

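Among 34 sets of 5 values (the 7 members and 10 within-tumor differences in each group), 2 had 1 tumor far from the other 4, where chance gives about 1 in 20. Csf2rb was 9.52 in CpG1826 tumor 183, whose gap to the next tumor, at 9.26, took up 0.744 of the range of the 5 tumors. Csf1r minus Csf2rb was 0.988 in CpG1826 tumor 595, against 0.689 in the next, a gap of 0.844 of the range. Without mouse 183 the log2 fold change of Csf2rb was 0.57 (limma adjusted p = 0.0175). Without mouse 595 the change of Csf1r minus Csf2rb was -1.15 (exact permutation test, two-sided, adjusted p = 0.0190). That test was fixed by the separate groups of the single genes.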

How the results depend on the processing

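Csf1r and Csf2rb kept direction and call under the 17 alternatives run, and Csf1, Il34, Csf2 and Csf2ra stayed uncalled (Csf2 was not among the genes tested when low ones were left out). The 10 within-tumor differences kept direction and side of the threshold under a further quantile normalization, median centring, the mean of a gene's probes and without any one mouse. For Csf1r minus Csf2rb and Csf1r minus Csf2rb2, the result without any one mouse was fixed by the separate groups of the single genes. Csf2rb2 lost its call after quantile normalization (0.42, limma adjusted p = 0.0514) and without 7 of 10 mice (log2 fold change 0.36 to 0.50 over the 10 fits). The number of genes called lower, 220, was 364 after quantile normalization and 338 with genes below the median level left out. It was 121 to 209 without 1 mouse, with 142 without CpG1826 mouse 183, 135 without CpG1826 mouse 50, and 144, 121 and 137 without PBS mice 29, 482 and 592. Of 47 named genes outside the members, 34 kept their side of the threshold under all alternatives and 0 of 790 values reversed. The causes were not tested. No paired analysis was possible because the groups share no mouse number. Without detection calls, a low value such as that of Csf2 limits what change could be seen.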

Other observations

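The 2 beta chain genes were also compared with each other within tumors. Csf2rb minus Csf2rb2 on the log2 scale lay between 0.36 and 0.62 in the CpG1826 tumors (mean 0.48 ± 0.12) and between 0.17 and 0.36 in the PBS tumors (mean 0.30 ± 0.07; SD, n = 5 each), so the groups met at one end. This comparison was made after the data were seen and was not tested.

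PBS mouse 661 had the lowest values of its group for Csf1r (10.26), Csf2rb (8.22), Csf2rb2 (8.05) and Il34 (9.65), the highest for Csf1 (10.04), and the lowest mean of the 14 macrophage markers, 9.39 against 9.59 to 9.67 in the other PBS tumors. CpG1826 mouse 183 had the highest values of its group for Csf2rb (9.52), Csf2rb2 (9.16) and Csf2ra (9.04), the lowest for Csf1 (9.78), and the highest marker mean, 9.66.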
